A study of Ovis aries with 6 samples.

Results

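The genes described here encode proteins of the cornified envelope and lie in the epidermal differentiation complex on sheep chromosome 1. A list of 10 names was chosen from an earlier comparison of these same 2 breeds, so the breed difference of each gene is given as a description and without a test. Of these 10 names, 7 were found among the 28394 genes of the files, namely TCHHL1, RPTN, LOC105613042, LOC101120378, LOC105614079, LOC105613519 and IVL. No gene was found under the names FLG2, CRNN or LOR. The name table gives the symbol CRNN (cornulin) to LOC101121219, which is described among the neighbouring genes. All 7 genes passed the filter of at least 10 counts in at least 3 sheep.

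Skin RNA came from 3 Super Merino (SM) ewes, a fine wool breed, and 3 Small Tail Han (STH) ewes, a coarse wool breed. The sheep of both breeds were kept on one farm and fed alike, and were sampled in the same season from shaved skin behind the shoulder blade. The sample labels give an age of 9 months, whereas the methods of the study give a younger age, and the labels name no batch. Each sheep gave 1 polyA RNA library, with total counts between 28870583 and 44645091, and the sheep are called SM1 to SM3 and STH1 to STH3. Whole skin holds epidermis, wool follicles, glands, muscle and dermis in one sample, so that fewer cells of a type and less RNA per cell cannot be told apart.

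The cornified envelope is a sheet of cross-linked protein that replaces the plasma membrane of keratinocytes as they die at the skin surface. Its precursors are made in the upper living layers of the epidermis, are joined by transglutaminases, and give the surface its strength and its barrier to water loss. Many of the precursors are encoded side by side in the epidermal differentiation complex. The complex holds the fused S100 proteins (filaggrin, hornerin, repetin, trichohyalin and relatives), the involucrin and loricrin family, the small proline-rich proteins and the late cornified envelope proteins.

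In the coordinates of the files, which are those of Oar_v4.0, the 7 genes spanned 808268 bases of chromosome 1. In order they were TCHHL1 at 100854244 to 100861502, RPTN at 100922011 to 100928773, LOC105613042 at 100998306 to 101006564, LOC101120378 at 101054250 to 101061849, LOC105614079 at 101088513 to 101101488, LOC105613519 at 101534651 to 101536233 and IVL at 101659350 to 101662511. The first 6 were annotated on the minus strand and IVL on the plus strand. The 5 fused S100 genes were separated from each other by 26663 to 69532 bases, with other annotated genes between some of them. A gap of 433162 bases separated them from LOC105613519, and 123116 bases separated this gene from IVL.

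RPTN encodes repetin, a fused S100 protein of the upper epidermis and of the hair follicle. Its TMM-normalized CPM, the count scaled to the effective library size, was 15.9, 14.9 and 16 in SM1, SM2 and SM3 and 87.0, 234 and 177 in STH1, STH2 and STH3. The lowest STH sheep was 5.44 times the highest SM sheep, the widest gap of the 7 genes. The 3 SM sheep were nearly level, with the highest 1.08 times the lowest, whereas this ratio was 2.68 among the STH sheep. RPTN was 10.6-fold higher in STH sheep (log2 fold change of SM over STH -3.41, SE 0.33), with means of 15.6 ± 0.613 and 166 ± 73.9 CPM (SD, n = 3 for each breed).

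TCHHL1 encodes trichohyalin like 1, a relative of the trichohyalin of the inner root sheath. It measured 136, 138 and 84.7 CPM in the SM sheep and 232, 296 and 653 CPM in the STH sheep. The breeds did not overlap, but STH3 stood far above the other 2 STH sheep. The fitted difference was 3.29-fold (log2 fold change -1.72, SE 0.38), and without any 1 of the sheep it lay between -1.99 and -1.14.

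LOC105613042 and LOC105614079 are called filaggrin-like by the study, and LOC101120378 is called hornerin. Filaggrin and hornerin are long repetitive proteins of the keratohyalin granules that are cut into repeat units during cornification. LOC105613042 measured 218, 131 and 69.3 CPM in the SM sheep and 444, 930.4 and 599.8 CPM in the STH sheep. It was 4.72-fold higher in STH sheep (log2 fold change -2.24, SE 0.42), the second largest difference of the group after RPTN. The SM sheep themselves differed up to 3.15-fold, the widest spread of the 7 genes within that breed.

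LOC105614079 measured 108, 110.3 and 48.7 CPM in the SM sheep and 131, 279.8 and 244 CPM in the STH sheep. LOC101120378 measured 116, 80.4 and 42.2 CPM in the SM sheep and 129, 193 and 203 CPM in the STH sheep. In both genes STH1 lay close to the SM sheep, only 1.19 and 1.11 times the highest of them. The fitted differences were 2.45-fold for LOC105614079 (log2 fold change -1.29, SE 0.36) and 2.20-fold for LOC101120378 (log2 fold change -1.14, SE 0.34). SM3 was the lowest SM sheep for all 3 of these genes and for TCHHL1.

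IVL encodes involucrin, one of the first proteins laid down under the membrane when the envelope forms. It measured 205, 266 and 244 CPM in the SM sheep and 439, 415 and 628 CPM in the STH sheep. No other gene of the group had as small a spread among the STH sheep, in which the highest was 1.51 times the lowest, and the breeds were separated by a factor of 1.56. IVL was 2.07-fold higher in STH sheep (log2 fold change -1.05, SE 0.20).

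LOC105613519 is called late cornified envelope protein 1D-like by the study. The late cornified envelope proteins are small proteins added to the envelope at a late step. It measured 17.4, 14.6 and 24.8 CPM in the SM sheep and 20.2, 39.0 and 48.6 CPM in the STH sheep. This was the only one of the 7 genes in which the breeds overlapped, since STH1 was below SM3. The fitted difference was 1.90-fold (log2 fold change -0.92, SE 0.32).

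**Figure D1:**
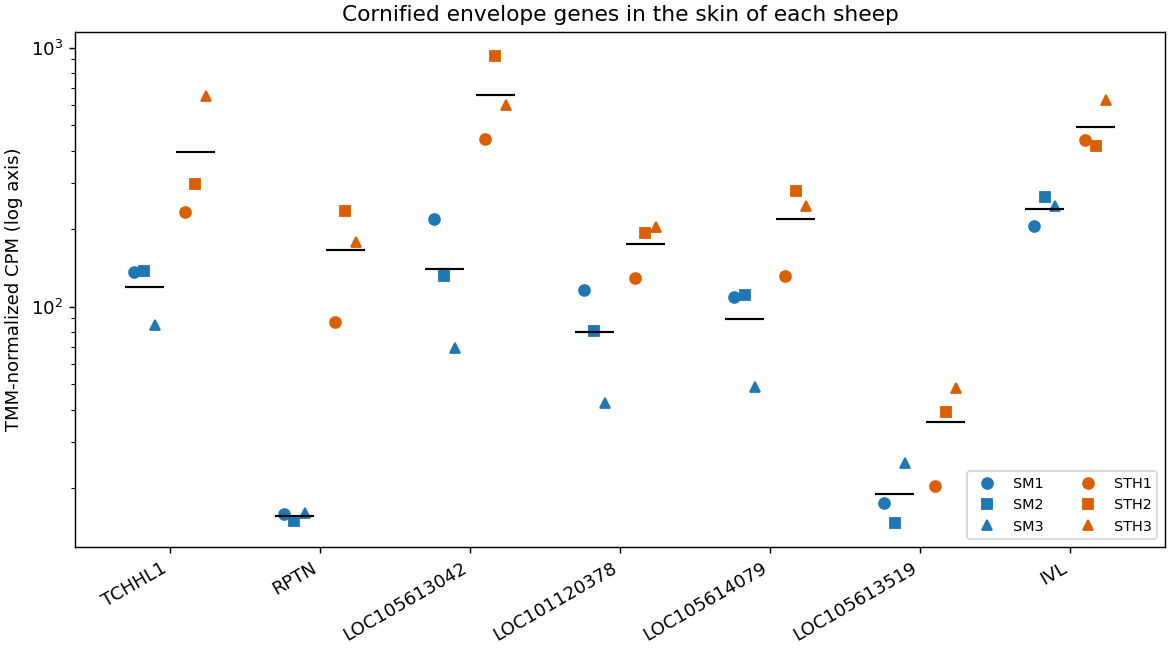
TMM-normalized CPM (log axis) of the 7 cornified envelope genes, in the order of their positions on chromosome 1, with 1 symbol per sheep (SM blue, STH orange) and a line at the mean of each breed. The STH sheep lie above the SM sheep for 6 of the 7 genes, with the widest gap for RPTN, and STH1 falls below SM3 for LOC105613519.

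All 7 genes were therefore higher in STH sheep on average. Their log2 fold changes had a median of -1.29, against 0.02 over the 15320 genes tested. For 6 of them each STH sheep was above each SM sheep, which held for 13.3% of all genes tested, while none showed the opposite pattern, found for 12.3%. Because the genes were chosen on this contrast, nothing is read from these shares. The summed CPM of the 7 genes was 816, 755 and 530 in the SM sheep against 1482, 2386 and 2553 in the STH sheep. STH1 was the lowest STH sheep for 6 of the 7 genes.

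With the quasi-likelihood test of edgeR, for which a call needed a fold change over 1.5 in either direction besides an adjusted p under 0.05, 0.0% of the genes tested passed, and the smallest adjusted p over all genes was 0.0606. An unadjusted p under 0.05 was given by this test to 18.0% of all genes. In the same fit, 7873 of the 15320 genes tested were higher in SM sheep and 7447 were higher in STH sheep. The likelihood ratio test of edgeR called 1.43% of the genes tested higher in STH sheep and 0.868% higher in SM sheep, and DESeq2 called 1.85% and 1.02%. These shares are the background for the other genes of cornification, and no call of the 7 genes themselves is given, since they were chosen on this comparison.

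Levels of different genes were compared only per length, as the RPKM deposited with the counts. IVL had the highest RPKM of the 7 genes in all 6 sheep, with 85.6, 116 and 106 RPKM in the SM sheep and 187, 170.1 and 259 RPKM in the STH sheep. RPTN had the lowest RPKM in all 6 sheep, with 1.81, 1.77 and 1.89 in the SM sheep against 10.1, 26.1 and 19.9 in the STH sheep. The gene with the largest breed difference was thus the least abundant of the group per length in either breed.

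The order between these extremes differed among the sheep. LOC105613042 came second in the 3 STH sheep, at 78.1, 157 and 102 RPKM, and lower in the SM sheep, at 37.6, 23.7 and 12.4 RPKM. It exceeded LOC105614079 in 3 of the 6 sheep only. LOC105614079 measured 40.05, 42.7 and 18.7 RPKM in the SM sheep and 49.6, 102 and 89.1 RPKM in the STH sheep. TCHHL1 exceeded LOC101120378 in 5 of the 6 sheep, and LOC105613519 exceeded TCHHL1 in 4. In this order the 3 genes TCHHL1, LOC101120378 and LOC105613519 measured 15.1, 13.3 and 15.2 RPKM in SM2 but 9.19, 6.93 and 25.6 RPKM in SM3. In STH2 they measured 30.4, 29.9 and 38.0 RPKM and in STH3 67.4, 31.8 and 47.7 RPKM, so that both their order and their distances varied between sheep.

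Each gene was also expressed as a share of the summed RPKM of the 7 genes, which was 215, 228 and 180 in the SM sheep against 391, 553 and 617 in the STH sheep. RPTN made up 0.84%, 0.78% and 1.05% of the sum in the SM sheep against 2.59%, 4.72% and 3.22% in the STH sheep. The share of IVL was 39.8%, 51.0% and 58.6% in the SM sheep against 47.9%, 30.7% and 42.0% in the STH sheep, so that the breeds overlapped. The share of LOC105613042 also overlapped, with 17.5%, 10.4% and 6.87% against 19.97%, 28.5% and 16.6%.

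KRT1 and KRT10, the keratin pair of the suprabasal cells that later form the envelope, were also higher in STH sheep on average. KRT10 measured 531, 627 and 523 CPM in the SM sheep and 793, 1600.1 and 1863 CPM in the STH sheep, and KRT1 629, 764 and 552 CPM against 742, 1484 and 2228 CPM. Their log2 fold changes were -1.34 (SE 0.29, adjusted p = 0.200) and -1.20 (SE 0.35, adjusted p = 0.247, edgeR's quasi-likelihood test). When the mean log2 CPM of KRT1 and KRT10 was subtracted in each sheep, the 7 genes no longer shared a direction. The subtraction shifts all genes of a sheep equally, so these directions follow from the breed differences of the 7 genes and the pair. Since the 7 genes were chosen on those differences, the relative values are a description only.

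On this relative scale RPTN was 2.13 higher in STH than in SM sheep, with means of -3.13 ± 0.40 and -5.26 ± 0.24 log2 units (SD, n = 3), and it was the only gene in which the breeds did not overlap. LOC105613042 followed, with a difference of 1.16 and means of -1.09 ± 0.58 in STH and -2.25 ± 0.78 in SM sheep. The differences of TCHHL1, LOC105614079 and LOC101120378 were 0.44, 0.15 and 0.07. The differences of IVL and LOC105613519 were -0.13 and -0.29, so that these genes stood slightly lower in STH sheep relative to the keratin pair, within the spread of the sheep. Relative to KRT5, a keratin of the basal layer, all 7 differences were positive, from 0.50 for LOC105613519 to 2.93 for RPTN, and 5 of the 7 genes did not overlap. The choice of the reference keratin thus decided the direction for IVL and LOC105613519. The share of all tested genes without overlap on these relative scales was not computed. Nothing is therefore read from the counts without overlap, and the 7 genes were chosen on the breed contrast.

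**Figure D2:**
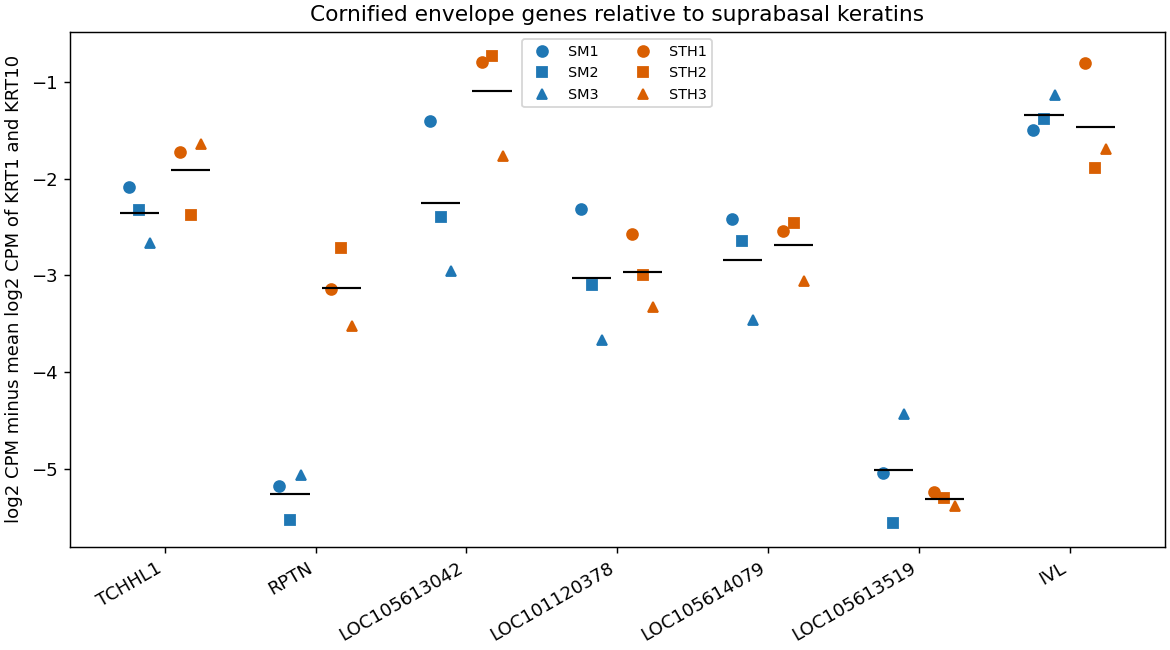
Log2 CPM of each cornified envelope gene minus the mean log2 CPM of KRT1 and KRT10 in the same sheep, with 1 symbol per sheep and a line at the mean of each breed. RPTN alone is separated between the breeds, by 2.13 log2 units between the means, and the other 6 genes overlap.

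Variation of the 7 genes within the breeds was described by the deviations of log2 CPM from the mean of each breed over the 6 sheep. Over the 21 pairs of genes the Pearson r of these deviations lay between -0.37 and 0.93, with a median of 0.41, and 18 were above 0. The genes LOC105613042, LOC101120378 and LOC105614079 varied most closely together, with r of 0.93, 0.91 and 0.88 for their 3 pairs. The reads of these repetitive genes could in part have been assigned to each other, and the part of this in their covariation was not tested. RPTN varied most closely with LOC105613519 (r = 0.78) and TCHHL1 with IVL (r = 0.68). IVL and LOC105613042 tended to opposite sides (r = -0.37). The 6 deviations carry only 4 degrees of freedom and share library and depth, so that these values are given without a test.

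The mean deviation of the 7 genes was also set beside the mean deviation of other gene groups in the same sheep. It varied with that of the other envelope proteins (r = 0.92), the basal epidermis (r = 0.85), the melanocytes (r = 0.79) and the suprabasal epidermis (r = 0.73). The melanocyte list is not one of keratinocytes, but only 3 of its 5 genes were tested. The 5 genes summed to only 4.17 to 6.25 CPM per sheep, so that little can be read from its value. For the dermal fibroblasts r was 0.41, for the enzymes of cornification 0.35 and for its regulators -0.31. It varied oppositely to the markers of smooth muscle (r = -0.92), endothelium (r = -0.78), the wool cortex and cuticle (r = -0.71) and the leukocytes (r = -0.50). The correlation of this mean was near 0 for the inner root sheath (r = -0.03), the sebaceous gland (r = -0.02) and the adipocytes (r = -0.07). The single genes were split, however. For the inner root sheath their r lay between -0.63 (LOC105613042) and 0.74 (LOC105613519), and for the sebaceous gland between -0.42 (TCHHL1) and 0.60 (LOC105613519). For the adipocytes the limits were -0.58 (LOC101120378) and 0.76 (LOC105613519), and for the wool cortex and cuticle -0.96 (LOC105613042) and 0.38 (IVL). These values too are descriptions over 6 sheep.

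**Figure D3:**
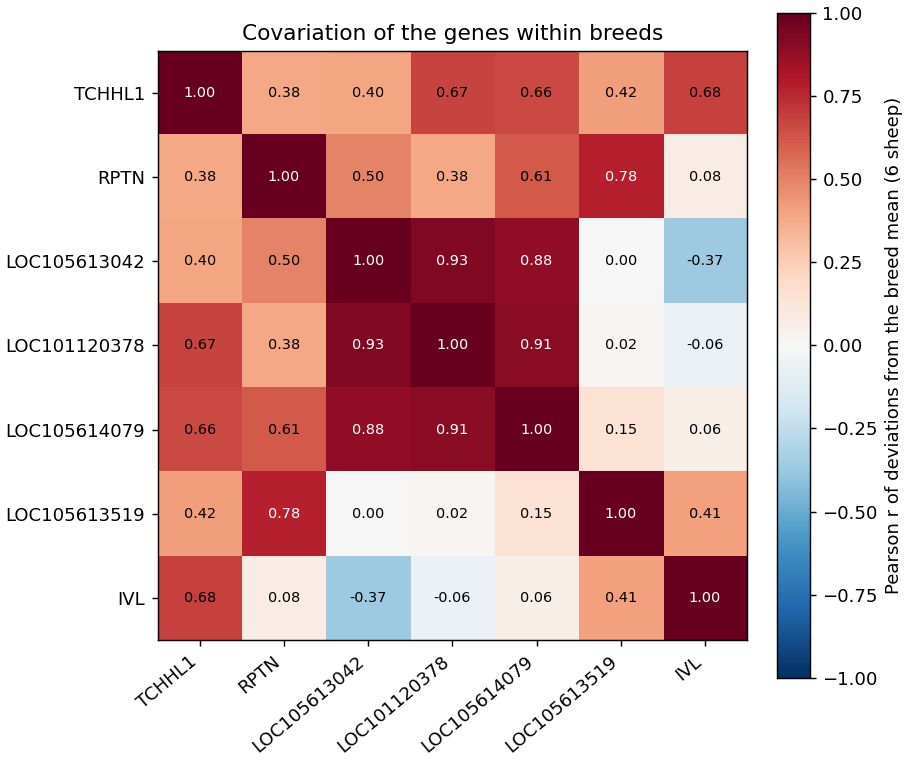
Pearson r between the 7 cornified envelope genes, from the deviations of log2 CPM from the breed mean in 6 sheep, in the order of their positions on chromosome 1. The block of LOC105613042, LOC101120378 and LOC105614079 has r from 0.88 to 0.93, and the lowest value is that of IVL with LOC105613042 (-0.37).

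Another 17 genes were annotated between TCHHL1 and IVL, of which 9 were tested. Of these, 8 were higher in STH sheep and 1 was higher in SM sheep, and the median of the 9 was -0.76. None was called by DESeq2 or by either test of edgeR. An unadjusted p under 0.05 was found for 4 of the 9 (LOC101120969, LOC101121986, C1H1orf68 and KPRP). The difference between the 7 genes and their neighbours was not tested, since the 7 genes were chosen for their difference.

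LOC101120969, which lies between TCHHL1 and RPTN, was the most abundant gene of the interval and the only neighbour in which the breeds did not overlap. It measured 11900, 12264 and 10898 CPM in the SM sheep and 13573, 19133 and 19932 CPM in the STH sheep (log2 fold change -0.59, SE 0.19, adjusted p = 0.247). LOC101120628, next to the filaggrin-like genes, measured 668, 366 and 192 CPM against 326, 1131 and 1271 CPM, so that the breeds overlapped widely (log2 fold change -1.15, SE 0.54, adjusted p = 0.292). LOC101121219, named cornulin in the name table, was nearly level, with 71.6 ± 29.7 CPM in SM and 80.2 ± 13.6 CPM in STH sheep (log2 fold change -0.16, SE 0.29, adjusted p = 0.765). KPRP, which encodes a proline-rich protein of keratinocytes, had a log2 fold change of -0.76 (SE 0.32, adjusted p = 0.270). LOC105605549, named LCE1F in the name table and adjacent to LOC105613519, had a log2 fold change of -0.89 (SE 0.46, adjusted p = 0.314). The exception was LOC101121986, with 9.58 ± 2.97 CPM in SM and 4.97 ± 2.30 CPM in STH sheep (log2 fold change 0.95, SE 0.37, adjusted p = 0.260).

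**Figure D4:**
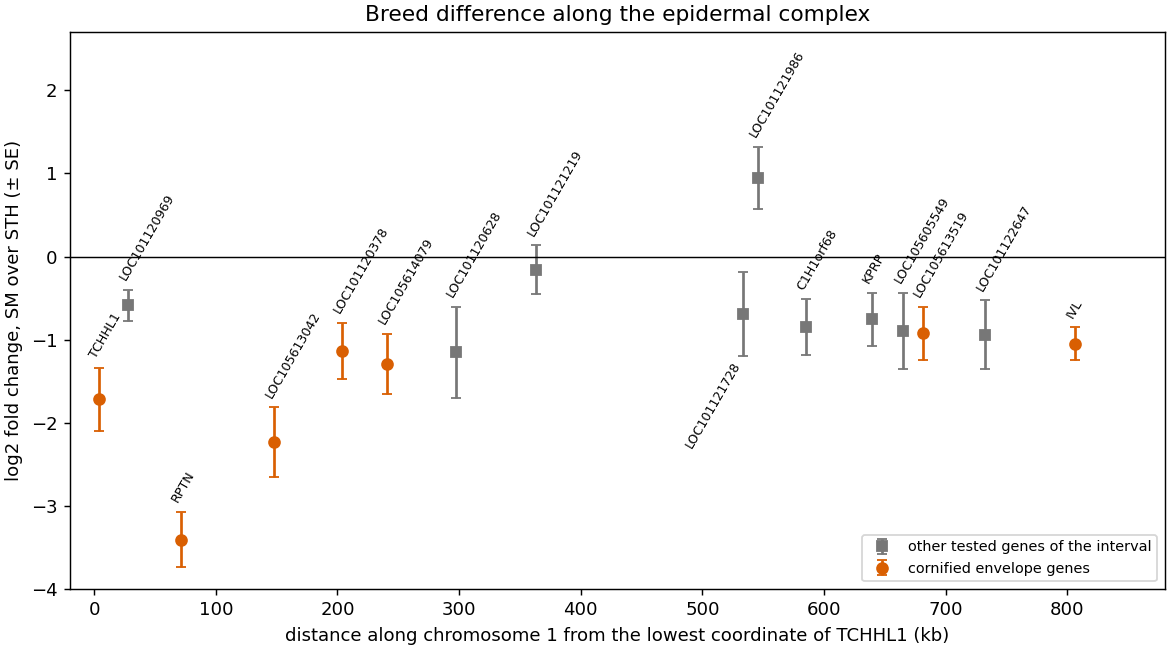
Log2 fold change of SM over STH (± SE, 3 sheep per breed) for the 7 cornified envelope genes (orange) and the 9 other tested genes of the interval (grey), against the distance along chromosome 1 from the lowest coordinate of TCHHL1. All genes lie below 0 except LOC101121986 (0.95), and RPTN (-3.41) lies lowest.

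The other genes of cornification were taken in 4 lists. Among the 11 genes of the suprabasal epidermis, 9 were higher and 2 lower in STH sheep, and the median of their log2 fold changes was -0.50. The quasi-likelihood test called 0 of them, 6 had an unadjusted p under 0.05, and both the likelihood ratio test and DESeq2 called 3 (KRT1, KRT10 and DSC1). DSC1 encodes a desmosomal cadherin of the upper layers and measured 603, 385 and 323 CPM in the SM sheep and 661, 871 and 899 CPM in the STH sheep (log2 fold change -0.89, SE 0.25, adjusted p = 0.240). The abundant suprabasal genes SBSN and KRTDAP were nearly level, with log2 fold changes of -0.08 (SE 0.20, adjusted p = 0.834) and 0.07 (SE 0.26, adjusted p = 0.878). The 3 genes in which each STH sheep was above each SM sheep were KRT10, DSG1 and DSC1, and KRT80 was the one with the opposite order.

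Among the other envelope proteins, 7 of 9 genes were tested and all 7 were higher in STH sheep on average, with a median of -0.74. The quasi-likelihood test called 0 of them, 4 had an unadjusted p under 0.05, and both other tests called 2 (SCEL and CNFN). KPRP is counted in these 7 and these 4 and also among the neighbouring genes of the interval. SCEL encodes sciellin, an envelope precursor, and measured 98.4, 87.5 and 49.96 CPM in the SM sheep and 117, 192 and 174 CPM in the STH sheep (log2 fold change -1.04, SE 0.28, adjusted p = 0.240). CNFN encodes cornifelin, an envelope component, and measured 6.25, 5.09 and 5.12 CPM against 7.68, 14.8 and 16.4 CPM (log2 fold change -1.24, SE 0.29, adjusted p = 0.216). The breeds did not overlap for these genes and for CSTA, which encodes the protease inhibitor cystatin A (log2 fold change -0.74, SE 0.23, adjusted p = 0.247). DSP and PPL, the desmosomal plaque proteins desmoplakin and periplakin on which the envelope is built, were nearly level, with log2 fold changes of -0.11 (SE 0.16, adjusted p = 0.700) and -0.10 (SE 0.16, adjusted p = 0.724).

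Most enzymes that cross-link and process the envelope were slightly higher in SM sheep on average. Of 15 genes, 10 were higher and 5 lower in SM sheep, with a median of 0.19. None was called by DESeq2 or by either test of edgeR, although 4 had an unadjusted p under 0.05 (TGM5, CASP14, PADI1 and BLMH). Of these, TGM5 and BLMH were higher in SM sheep, and CASP14 and PADI1 in STH sheep (PADI1 log2 fold change -0.78, SE 0.30, adjusted p = 0.256). Each STH sheep was above each SM sheep for PADI1, and the opposite order held for BLMH and CAPN1. The transglutaminase genes TGM1 and TGM3 had log2 fold changes of 0.19 (SE 0.15, adjusted p = 0.493) and 0.28 (SE 0.26, adjusted p = 0.530). BLMH, a peptidase that degrades filaggrin units to amino acids, had a log2 fold change of 0.42 (SE 0.17, adjusted p = 0.262), and the filaggrin-cutting protease gene ASPRV1 0.32 (SE 0.16, adjusted p = 0.311). CASP14, the caspase of cornification, was the enzyme with the largest difference, with 46.4 ± 5.55 CPM in SM and 88.0 ± 38.3 CPM in STH sheep (log2 fold change -0.92, SE 0.30, adjusted p = 0.247). KLK7, a protease of the desquamating layer, had a log2 fold change of -0.44 (SE 0.28, adjusted p = 0.388).

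Among 20 regulators of terminal differentiation, 15 were higher and 5 lower in SM sheep, with a median of 0.19. The quasi-likelihood test called 0. It gave an unadjusted p under 0.05 to 3 of the 20 (CEBPA, CEBPB and CEBPE), against 18.0% of all genes tested. Both other tests called CEBPE and CEBPB. CEBPE passed the count filter only through the STH sheep, in which it was high, so nothing is read from its p or its calls. CEBPB encodes a transcription factor of the suprabasal layers and was higher in SM sheep, with 70.6, 69.3 and 81.8 CPM against 45.2, 51.2 and 50.8 CPM (log2 fold change 0.59, SE 0.14, adjusted p = 0.215). Counts of the related CEBPE were 2, 4 and 2 in the SM sheep against 19, 21 and 29 in the STH sheep, which gave a ratio of STH over SM of 9.58 with an exact 95% interval of 4.60 to 23.1 that covers counting error only. The more abundant regulators HOPX, JUNB and VDR had log2 fold changes between 0.23 and 0.28, with adjusted p from 0.376 to 0.440.

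The markers of the tissues in these skin samples differed between the breeds as well, and no marker list had a gene with a count of 0 in all sheep. Summed CPM of 7 smooth muscle markers was 1151 to 1274 in SM and 1805 to 2166 in STH sheep, and the breeds did not overlap for 6 of the 7 (median log2 fold change -0.68). Summed CPM of the sebaceous gland markers was 1092 to 1621 in SM and 510 to 873 in STH sheep, with 6 of 7 tested genes higher in SM sheep and a median of 1.06. Basal epidermis markers summed to 5914 to 7167 CPM in SM and 6803 to 9680 CPM in STH sheep, with a median of -0.15. Markers of the wool cortex and cuticle had a median of 0.45, those of the inner root sheath -0.17, the endothelium 0.66, the leukocytes 0.28 and the melanocytes 0.24, those of dermal fibroblasts -0.18 and of adipocytes -0.37. Only 7 of the listed wool cortex and cuticle keratins were found. The melanocyte and adipocyte medians rest on 3 and 4 tested genes, in lists that summed to only 4.17 to 6.25 and 5.12 to 14.8 CPM per sheep. The quasi-likelihood test called 0 genes in each of these lists. It gave an unadjusted p under 0.05 to 5 smooth muscle, 5 sebaceous and 3 endothelial markers, to 1 marker each of the wool cortex and cuticle, inner root sheath, fibroblasts, adipocytes and leukocytes, and to 0 of the basal epidermis and melanocytes. The likelihood ratio test and DESeq2 both called the smooth muscle genes ACTG2, MYH11, DES, CNN1 and MYLK and the sebaceous genes DGAT2L6, ELOVL3 and FA2H, and DESeq2 also AWAT1. The part of these differences in the values of the cornified envelope genes was not tested.

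Among all tested genes, the profile over the 6 sheep was most like the mean standardized log2 CPM of the 7 genes for CPM (the gene of carboxypeptidase M), with a Pearson r of 0.999. LOC101112509 (0.995), CACNA2D3 (0.994), EXO5 (0.989) and IL17RB (0.989) followed. None of these lies between TCHHL1 and IVL. Their log2 fold changes were -0.93, -1.21, -0.98, -0.69 and -1.35 respectively, so that they share the breed difference of the group, and they were picked for their likeness among many genes over only 6 sheep. The 7 genes themselves had r of 0.80 (LOC105613519) to 0.96 (RPTN) with their own mean. Each gene is part of that mean, and all were chosen on the breed difference it contains, so that nothing is read from these values.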

How the data were processed

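Skin RNA of 3 SM and 3 STH sheep was sequenced as 1 library per sheep. The authors checked reads with FastQC, mapped them in CLC Genomics Workbench to the build Oar_v4.0. They deposited for each gene a raw total count, RPKM, TPM and a score headed CPM. The deposited TPM and score were not used. RPKM was proportional to the count (log2 tolerance 0.001) in 13597 of 13597 genes with at least 20 counts in every sheep.

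The 15320 genes that reached 10 counts in 3 or more sheep were normalized by TMM and tested by the quasi-likelihood test of edgeR 4.0.16 in R 4.3.3 with breed as the only term and Benjamini-Hochberg adjustment, a script tested on simulated data. A gene was called when its adjusted p was under 0.05 and its fold change in either direction over 1.5. An exact permutation test of 3 sheep against 3 cannot give a p below 0.1. The log2 CPM values used a prior count of 2. The floor of 3 counts was 0.0672 to 0.104 CPM and covers counting error only.

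The genes described and the gene lists were chosen with earlier results of these data known. Named genes were the 10 of the list, up to 4 genes of highest mean RPKM per list and of the interval, the genes of counts up to 5, and the 5 of most similar profile. Markers of other tissues are mostly given by list. A gene that this rule would also name is not reported here. The name table (ARS-UI_Ramb_v3.0) matched 21630 of 28394 identifiers. Alternatives were DESeq2 1.42.0, the likelihood ratio test, RLE and upper quartile scaling, other filters and thresholds, limma 3.58.1 on log2(RPKM + 0.1) and log2(RPKM + 1), and each sheep left out.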

Additional observations from a re-analysis of the deposited data

Results flagged for a closer look

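Among the genes between TCHHL1 and IVL, 7 were listed with 0 total counts in every sheep, and 4 of these nevertheless had an RPKM in every sheep above the level of 3 counts over 100 bases, which was 0.672 to 1.04 RPKM. These values lie outside every comparison made on counts, and with no unexpressed control samples they were set against that limit. LOC105614406 measured 13.4, 22.5 and 21.8 RPKM in SM1, SM2 and SM3 and 13.5, 25.6 and 26.8 RPKM in STH1, STH2 and STH3. LOC106990821 measured 25.8, 23.6 and 21.7 RPKM in the SM sheep and 20.9, 24.5 and 42.8 RPKM in the STH sheep. LOC101122482 measured 26.0, 18.8 and 18.3 RPKM in the SM sheep and 22.9, 34.5 and 52.7 RPKM in the STH sheep. LOC101122906 measured 49.1, 60.8 and 78.1 RPKM in the SM sheep and 68.2, 35.4 and 116 RPKM in the STH sheep. The breeds overlapped for all 4 genes. None of the 7 cornified envelope genes had a count of 0 in any sheep.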

How the results depend on the processing

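No paired analysis was possible because the labels give no number or pairing that joins an SM sheep to an STH sheep. All 98 log2 fold changes of the 7 cornified envelope genes under the alternatives were below 0. Their median lay between -1.55 and -1.14 with each sheep left out, RPTN was -2.71 with limma on log2(RPKM + 1), and 6 to 7 of the genes did not overlap. Relative to KRT1 and KRT10, the median difference of STH minus SM sheep was 0.15, lay between -0.0038 and 0.42 with each sheep left out (the lowest without SM3), and was 0.95 relative to KRT5, a reference added after seeing the data. RPTN then differed by 2.93. The number of genes without overlap on this scale was 1, between 1 and 2 with each sheep left out (2 without SM1, STH2 or STH3), and 5 relative to KRT5. The share over all tested genes was not computed for these scales.

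Over all genes, 0 were called by the quasi-likelihood test, 439 by DESeq2, 352 by the likelihood ratio test, 2 without a count filter and 5 at an adjusted p under 0.1. With each sheep left out the number lay between 0 and 1163, the highest without SM1, and was 3 without SM2, 2 without SM3 and 1 without STH1. The 4 lists of cornification held 0 called genes, 7 with DESeq2, 7 with the likelihood ratio test, and 0 to 7 with each sheep left out (7 without SM1). The cause was not tested. The 7 of DESeq2 and the 7 of the likelihood ratio test include CEBPE, which passed the count filter only through the STH sheep. The median of the suprabasal list lay between -0.71 and -0.16 and that of the other envelope proteins between -0.78 and -0.32 with each sheep left out, in both cases smallest in size without STH3. The median of the genes of the interval lay between -1.11 and -0.48, and 0 of them were called under any alternative. The reference of KRT5 with KRT14 and counts divided by exon length were not run, since the files hold no gene named KRT14 and no exon length. All 7 cornified envelope genes lay far above the floor of 3 counts in every sheep.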
